A study of Mus musculus with 6 samples.

Results

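The genes described here are 10 members of fibroblast growth factor (FGF) signalling: the ligands Fgf1, Fgf2, Fgf9 and Fgf18, the receptors Fgfr1, Fgfr2, Fgfr3 and Fgfr4, the adaptor Frs2 and the feedback inhibitor Spry2. They were chosen by gene symbol, which picked 17 of the 45281 probes on the array. The probes of the whole array carry 28891 different gene or clone names. Of the 17 probes, 6 were above background on all 6 arrays, 4 of them for Fgfr2 and 1 each for Fgf1 and Frs2. A further 3 probes, for Fgf1, Fgf9 and Fgf18, were above background on 4 or 5 arrays, and the remaining 8 were below background on every array.

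RNA of isolated luminal epithelium, taken from uteri at 3.5 days post coitum, was hybridised to 6 single-colour Illumina mouse bead arrays, all on 1 chip. The 3 CKO samples (replicates D, E and F) came from females homozygous for a floxed Alk3 allele and carrying Cre knocked into 1 copy of the progesterone receptor locus (Alk3flox/flox Pgrcre/+). The 3 Control samples (replicates A, B and C) are labelled only as control, with no genotype beyond that. Both groups shared a mixed C57BL/6J and 129S5/SvEvBrd background, and no age is given. Alk3, also called Bmpr1a, encodes a receptor through which bone morphogenetic proteins signal. Cre made from Pgr acts in the stroma and muscle of the uterus as well as in its epithelium. Whether each array came from a separate animal is not stated, so the p-values reflect only the spread among these arrays, which may be technical.

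FGF ligands are secreted proteins that bind a receptor tyrosine kinase together with heparan sulfate on the cell surface. The activated receptor phosphorylates the docking protein FRS2, which recruits GRB2 and SOS and switches on the RAS-ERK cascade, and ERK in turn induces sprouty proteins and dual-specificity phosphatases that dampen the signal. In the mouse uterus before implantation, progesterone induces the transcription factor HAND2 in stroma, HAND2 holds down stromal Fgf1, Fgf2, Fgf9 and Fgf18, and these ligands otherwise drive the epithelium to proliferate through its FGF receptors.

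Expression is given as normalised log2 signal, after background correction with an offset of 16, which makes differences of dim probes smaller than they are. A probe counted as above background on an array when its detection p-value there was under 0.05, and probes above background on at least 3 arrays were tested, which kept 17291 in all and 9 of the 17 FGF probes. Raw array medians ran from 79.7 to 82.1 in CKO and from 82.4 to 87.6 in Control, and 16620 to 17536 probes were above background on an array. CKO array E stood apart: its log2 signals had a mean correlation of 0.932 with the remaining arrays, where each of the other 5 had 0.950 to 0.968. Chip positions D to F held CKO and A to C held Control, so the groups and the chip positions cannot be told apart. Bmpr1a gave 8.60 ± 0.31 in CKO and 9.19 ± 0.20 in Control by its brighter probe (SD, n = 3 each). The log2 difference was -0.60 (95% confidence interval -1.13 to -0.06), with groups that did not overlap, an exact two-sided permutation p of 0.1 (3 arrays against 3 cannot go lower), and an adjusted p of 0.985 by limma. Its other probe lay at 6.40 ± 0.69 in CKO and 6.91 ± 0.27 in Control, with an exact permutation p of 0.3. Where these probes lie relative to the deleted part of the gene is not given, so they do not check the deletion.

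The label of luminal epithelium was set against marker genes. Of 9 pan-epithelial genes, 8 were tested, among them Krt8, Krt18, Cldn3, Cldn4 and Cdh1, while Epcam was below background on every array. The luminal markers tested included Lpar3, Msx1, Wnt7a and Wnt7b, and Calb1 and Krt13 were below background on every array. Of 13 stroma markers 10 were tested. Their summed normalised signal, on the linear scale with the offset taken off, ran from 1015 to 7421 in CKO and from 2374 to 3125 in Control. By the mean log2 deviation from the 6-array mean, D (1.14) and E (0.68) lay above and F (-1.05) below all Control arrays. The stroma markers Hand2 and Hoxa11 were below background on all 6 arrays.

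**Figure D1:**
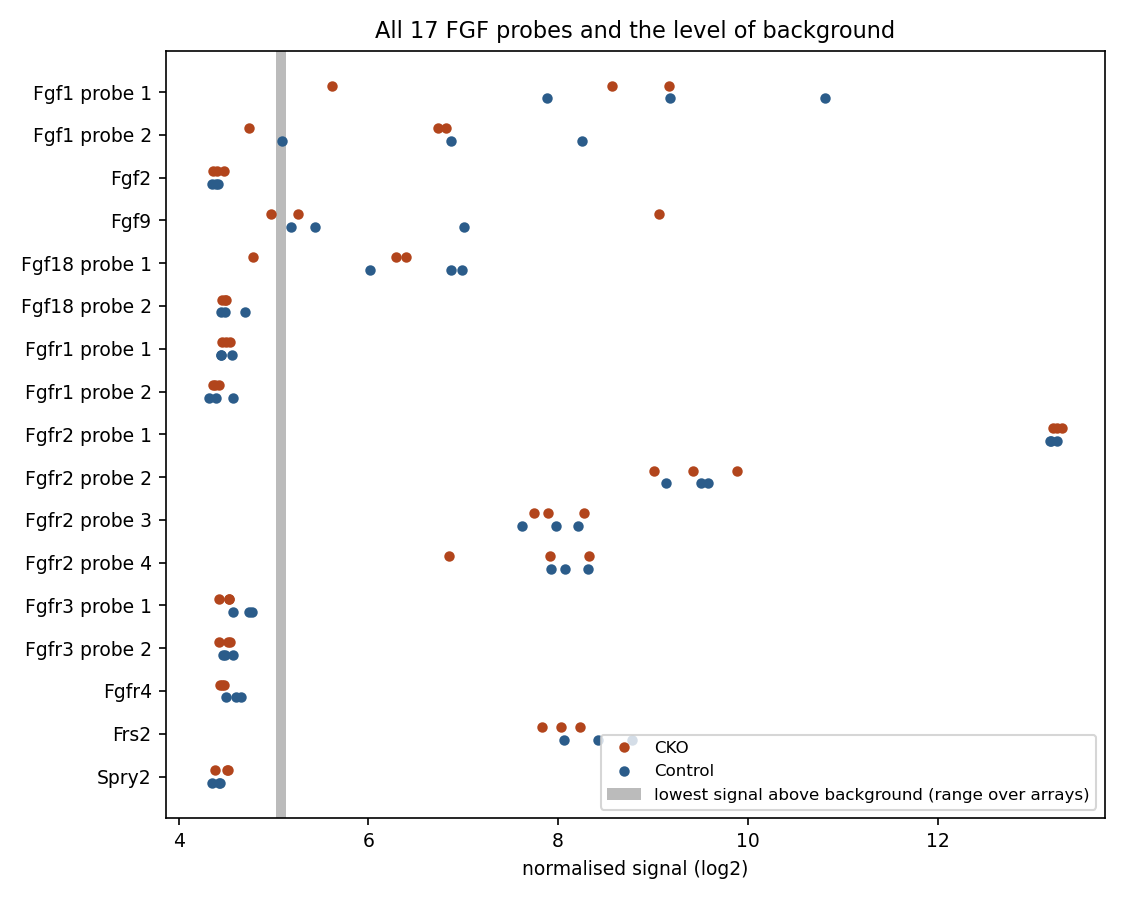
All 17 FGF probes. The horizontal axis is the normalised signal on the log2 scale, each point is 1 array, CKO in orange above Control in blue, and the grey band spans the lowest signal above background on the 6 arrays, 5.02 to 5.13. The probes of Fgf2, Fgfr1, Fgfr3, Fgfr4 and Spry2 and the dim Fgf18 probe lie left of the band on every array. Probes of a gene are numbered from the brightest.

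Of the 10 genes, 5 left no measurable signal. For Fgf2, Fgfr1, Fgfr3, Fgfr4 and Spry2 each probe was below background on all 6 arrays, so these 5 genes have only a bound in both groups and no fold change is given. Together with the dimmer Fgf18 probe they had raw intensities between 64.3 and 87.0, where the lowest raw intensity above background on an array was 88.4 to 99.4. FGFR1, FGFR3 and FGFR4 are receptors with their own ligand preferences, FGF2 is a ligand that lacks a classical signal peptide, and SPRY2 inhibits signalling from receptor to ERK. A signal below background on these arrays does not show that the transcript is absent.

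Of the 9 FGF probes tested 0 passed, by limma with Benjamini-Hochberg adjustment over all 17291 probes (adjusted p of 0.985 to 0.992). They lay higher in CKO for 4 probes and lower for 5 of 9, where 52.5% of all probes were lower. At an unadjusted p under 0.05 their number was 0 of 9, against 788 of 17291 probes, which is 4.56%. Groups that did not overlap were found for 0 of the 9, where the background over all probes was 10.3%. Over all probes 3 passed, all higher in CKO, which is 0.0174%; they measure Mak16 (Rbm13 on the array), Gin1 and Cops8, named after their values were seen. The Mak16 and Gin1 probes were below background on 3 of 3 Control arrays and the Cops8 probe on 2 of 3, so these probes entered the test wholly or mainly through CKO. The median log2 difference of the 9 was -0.39, beside -0.02 over all probes tested, but it was 0.02 without CKO replicate D and 0.03 without Control replicate C, and -0.15 with array weights.

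Among the ligands, Fgf1 varied more between samples of a group than between the groups. FGF1 binds all FGF receptors. Its brighter probe (ILMN_2701233) read 8.56, 5.62 and 9.17 on CKO arrays D, E and F, against 7.88, 9.18 and 10.81 on Control arrays A, B and C. Control C was the highest array and CKO E the lowest, while CKO D and F lay between Control A and B, so the groups overlapped. The log2 difference was -1.51 (SE 1.07, 95% confidence interval -4.06 to 1.04, adjusted p 0.985 by limma), from means of 7.78 ± 1.90 in CKO and 9.29 ± 1.47 in Control (SD, n = 3 each). Without CKO replicate E the difference was -0.43, and without Control replicate C it was -0.75. The dimmer probe (ILMN_2721110) read 6.73, 4.75 and 6.82 in CKO and 5.08, 6.87 and 8.25 in Control, and was below background on CKO E and Control A. Both probes put C, B, F and D in that order from the top, above A and E, whose order on the dimmer probe was not measured. The dimmer probe's difference was -0.64 (SE 0.89), and its sign changed without CKO replicate E (0.03) or without Control replicate C (0.12).

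Fgf9 was highest on the array where Fgf1 was lowest. FGF9 is a ligand made by epithelia that signals mainly to mesenchymal receptor forms, and it is also among the stromal FGFs listed above. Its single probe (ILMN_2648289) read 5.26, 9.06 and 4.97 on CKO arrays D, E and F, against 7.01, 5.19 and 5.44 on Control arrays A, B and C. CKO E stood far above the rest, Control A came next, and the other 4 arrays lay near the level of background, with F below it. The log2 difference was 0.55 (SE 1.11, 95% confidence interval -2.09 to 3.19, adjusted p 0.985 by limma), and it turned to -0.76 without CKO replicate E. The means were 6.43 ± 2.28 in CKO and 5.88 ± 0.99 in Control (SD, n = 3 each).

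Fgf18, a ligand best known from bone and lung development, was measured by 1 probe (ILMN_2764004) and was dim. It read 6.39, 4.78 and 6.30 on CKO arrays D, E and F, against 6.87, 6.98 and 6.02 on Control arrays A, B and C. CKO E was lowest and below background, Control A and B were highest, and Control C lay under both CKO D and F: the groups overlapped. The log2 difference was -0.80 (SE 0.49, 95% confidence interval -1.96 to 0.36, adjusted p 0.985 by limma), and -0.29 without CKO replicate E. The other Fgf18 probe (ILMN_1219545) stayed below background on each of the 6 arrays.

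**Figure D2:**
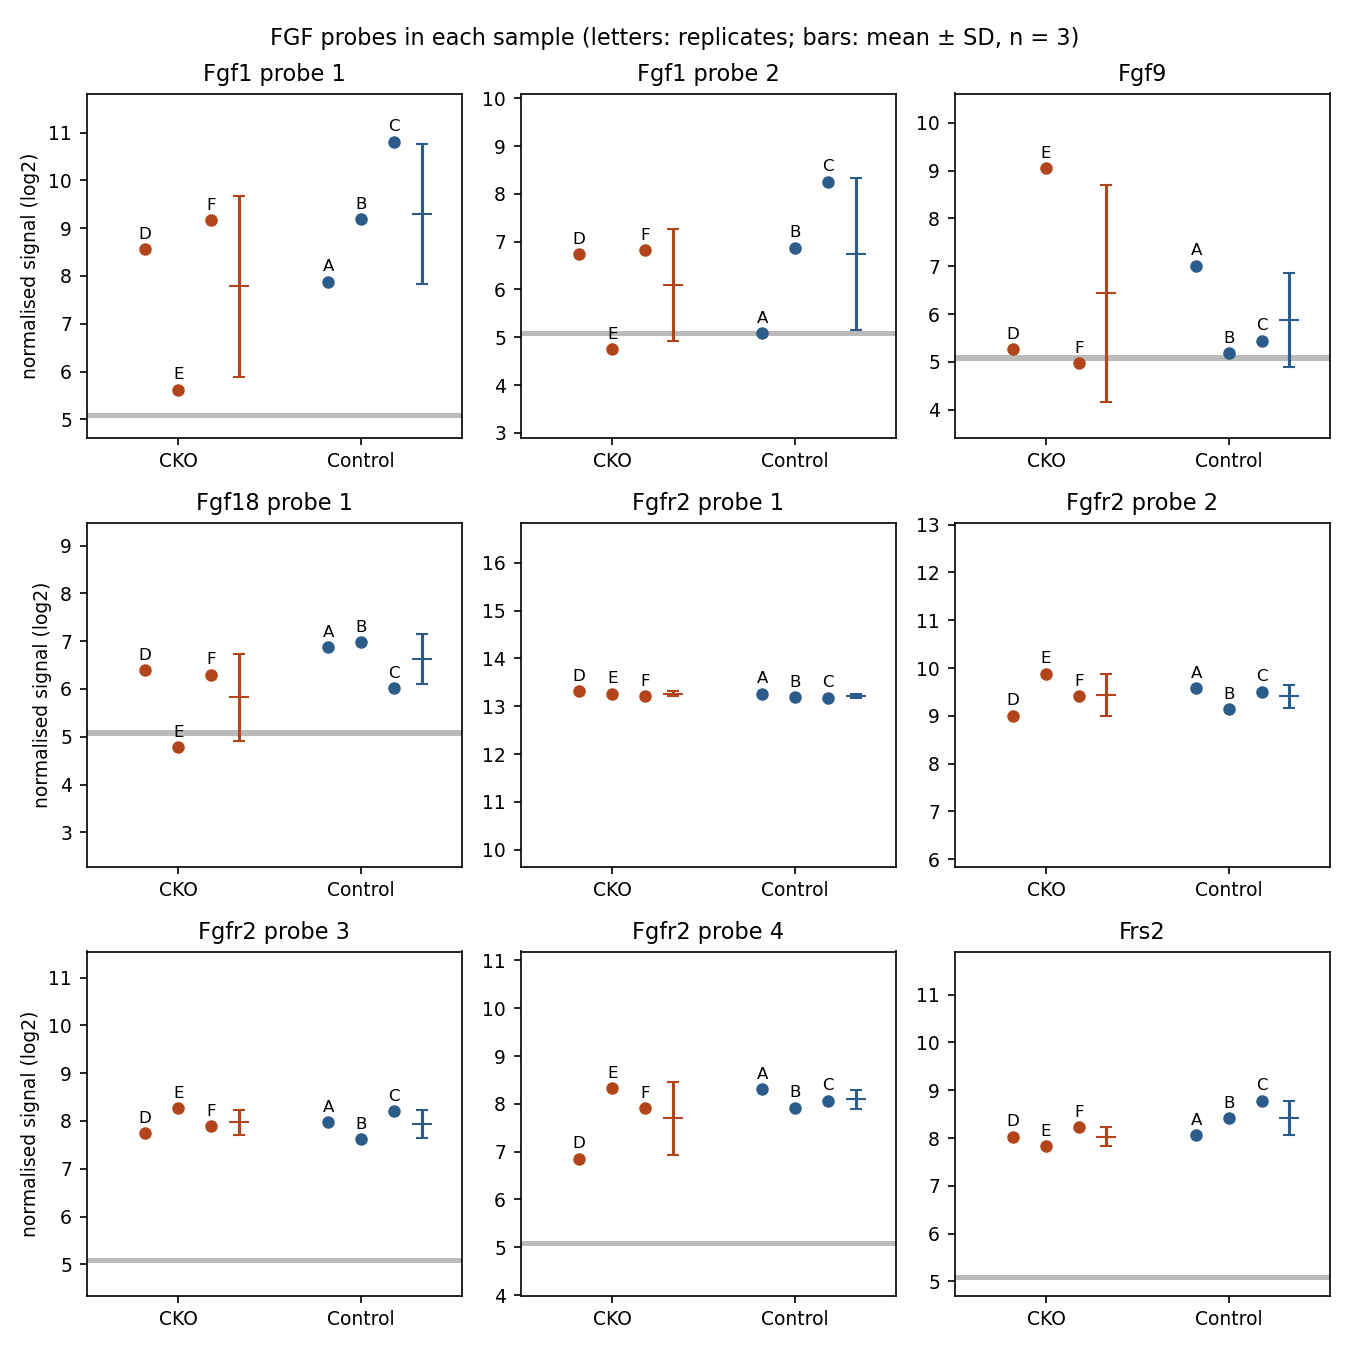
The 9 FGF probes tested, 1 panel each, CKO at left and Control at right; the vertical axis is the normalised signal on the log2 scale and every panel spans the same number of log2 units. Letters mark the replicates, the bar beside each group is the mean ± SD (n = 3), and the grey band is the lowest signal above background. Fgf1 and Fgf9 scatter over several log2 units within a group, while Fgfr2 probe 1 stays between 13.18 and 13.31.

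The 4 ligand probes were among the most variable on the array. The spread within groups, as the pooled SD of the log2 signal, was 1.76 for Fgf9, 1.70 and 1.40 for the Fgf1 probes and 0.74 for Fgf18, where the median over all probes tested was 0.31. Of all probes tested, 99.5% had a smaller spread than Fgf9, 99.4% and 98.8% a smaller one than the Fgf1 probes, and 91.0% a smaller one than Fgf18. Array E was the lowest for the brighter Fgf1 probe and for Fgf18 and the highest for Fgf9. Against the mean of the other 5 arrays it lay at -3.50 for the brighter Fgf1 probe and at 3.48 for Fgf9, each a log2 difference of 1 sample with no replicate. For the dimmer Fgf1 probe and for Fgf18 array E was below background, so it has only a bound there. Control A went the same way as E for Fgf1 and Fgf9, but not for Fgf18. These order statements describe the samples and carry no test.

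Of the 4 receptors only Fgfr2 was above background, and its brightest probe varied least of the 9 FGF probes tested. FGFR2 is the FGF receptor of many epithelia, where splicing makes the IIIb form that answers to ligands from the mesenchyme. Its brightest probe (ILMN_1225071, annotated to transcript variant 2) read 13.31, 13.26 and 13.21 on CKO arrays D, E and F, against 13.26, 13.19 and 13.18 on Control arrays A, B and C. All 6 values lay within 0.12 log2 units, and 0.168% of the probes tested had a smaller range. Its raw intensities, before normalisation between arrays, were 8859 to 10002 in CKO and 9226 to 10891 in Control. CKO D had the lowest raw intensity and the highest normalised signal, so the order of the arrays depends on the normalisation. The log2 difference was 0.05 (SE 0.16, 95% confidence interval -0.32 to 0.42, adjusted p 0.985 by limma). That interval runs from 0.799-fold to 1.34-fold of Control, and this fit did not resolve smaller differences. Its width depends on the variance that limma borrows from the other probes. The SE was 0.0999 in a robust fit with an intensity trend and 0.0608 with no filter.

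The other 3 Fgfr2 probes were dimmer but above background on all arrays. Probe ILMN_2609887, also annotated to transcript variant 2, gave 9.01, 9.88 and 9.42 in CKO against 9.57, 9.14 and 9.50 in Control, a difference of 0.03 (SE 0.27). Probe ILMN_1229167, the only one annotated to transcript variant 1, gave 7.75, 8.27 and 7.89 in CKO against 7.97, 7.62 and 8.21 in Control, a difference of 0.04 (SE 0.23). Probe ILMN_2646078, annotated to transcript variant 2, gave 6.85, 8.32 and 7.91 in CKO against 8.31, 7.92 and 8.07 in Control, a difference of -0.41 (SE 0.38). That last value rested on CKO D, the lowest array, and without it the difference was 0.02. On each of these 3 probes CKO E was the highest array. All 4 Fgfr2 probes had groups that overlapped, and their adjusted p-values ran from 0.985 to 0.992 by limma. Probe positions are not given in the files, so the annotated variant does not separate the IIIb and IIIc forms. Esrp1 and Esrp2, splicing factors that favour the epithelial form of Fgfr2, differed by -0.01 (SE 0.55) and 0.60 (SE 0.28) on the log2 scale by their brightest probes, and neither passed (adjusted p 0.997 and 0.985 by limma). The Esrp1 value turned positive under 3 of 12 other settings, and Esrp2 was 0.38 without Control replicate C.

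Frs2 encodes the docking protein that links FGF receptors to ERK, and its single probe (ILMN_2993711) was above background throughout. It read 8.03, 7.83 and 8.23 on CKO arrays D, E and F, against 8.06, 8.42 and 8.78 on Control arrays A, B and C. Control B and C lay above every CKO array, while Control A lay below CKO F, so the groups overlapped by that pair. The log2 difference was -0.39 (SE 0.24, 95% confidence interval -0.96 to 0.17, unadjusted p 0.145 and adjusted p 0.985 by limma), from means of 8.03 ± 0.20 in CKO and 8.42 ± 0.36 in Control (SD, n = 3 each). It kept its sign with each array left out, from -0.57 without Control replicate A to -0.21 without Control replicate C. Its spread within groups, 0.29, was close to the median of all probes.

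**Figure D3:**
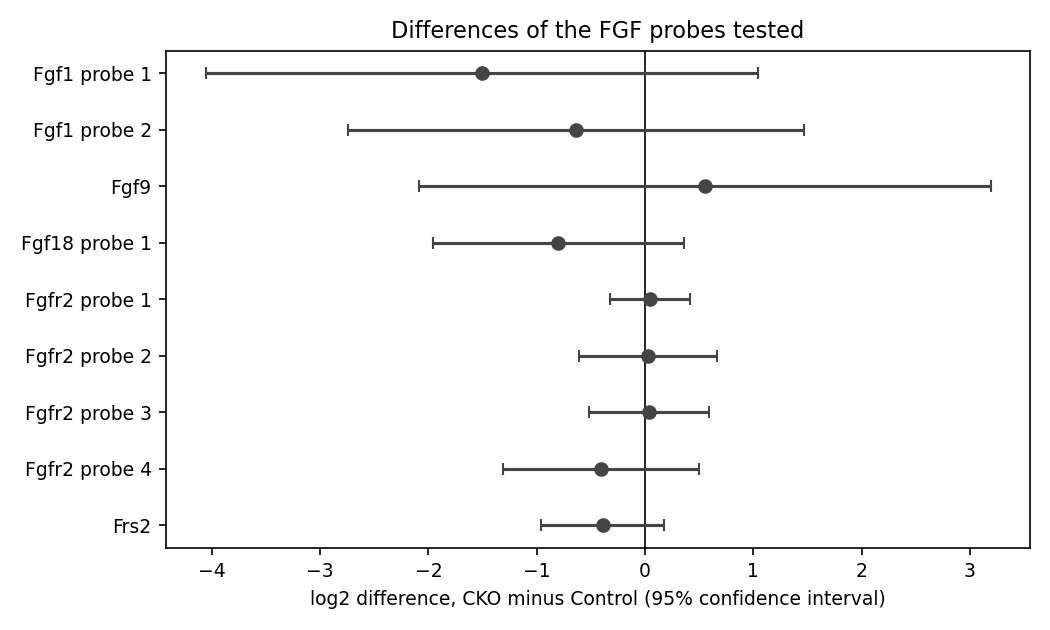
Log2 differences, CKO minus Control, of the 9 FGF probes tested. Points are limma estimates and bars are 95% confidence intervals, each from 3 CKO and 3 Control arrays. Every interval includes 0; the widest are those of Fgf9 (-2.09 to 3.19) and the brighter Fgf1 probe (-4.06 to 1.04), the narrowest that of Fgfr2 probe 1.

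The array profiles of the FGF probes were also set beside those of marker lists. On CKO array E, where Fgf9 was highest and Fgf1 and Fgf18 lowest, the mean log2 deviation from the 6-array mean was 0.66 for luminal markers, 1.11 for glandular markers, 0.68 for stroma, 0.98 for endothelium, 0.66 for smooth muscle and -0.29 for pan-epithelial markers. Control A, second for Fgf9, had 0.58 for luminal, 0.18 for glandular, -0.42 for stroma, -0.15 for endothelial, 0.64 for smooth muscle and 0.12 for pan-epithelial markers. Control C, highest for Fgf1, had -0.44, -0.42, -0.07, -0.11, -0.56 and 0.05 on the same lists in that order. CKO D and F were as low as C or lower on the glandular list, at -0.67 and -0.47, and near it on the luminal list, at -0.40 and -0.44. Of the lists, 5 of 7 luminal, 4 of 7 glandular and 7 of 8 endothelial markers were tested. The means thus rest on few genes, and some of these vary widely. The SE of the log2 difference was 1.39 for Wnt7b (luminal), 1.75 for Prss29 (glandular) and 1.14 for Acta2 (smooth muscle). How far single genes carry the means was not tested. Summed signals ran from 18038 to 21462 in CKO and 19644 to 21371 in Control for luminal markers, from 6721 to 6909 in CKO and 7526 to 9179 in Control for glandular markers, and from 343 to 1487 in CKO and 590 to 632 in Control for endothelial markers. Of 7 smooth muscle markers 3 were tested, with sums of 144 to 881 in CKO and 177 to 2063 in Control, and Cnn1, Myh11 and Tagln were below background on all arrays. For the glandular list the sum and the mean deviation did not go the same way. CKO E had the highest mean deviation, yet its sum, like those of CKO D and F, lay below every Control array. In such samples fewer cells of a type cannot be told apart from less RNA per cell. The part of cell make-up in the FGF values was not tested.

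**Figure D4:**
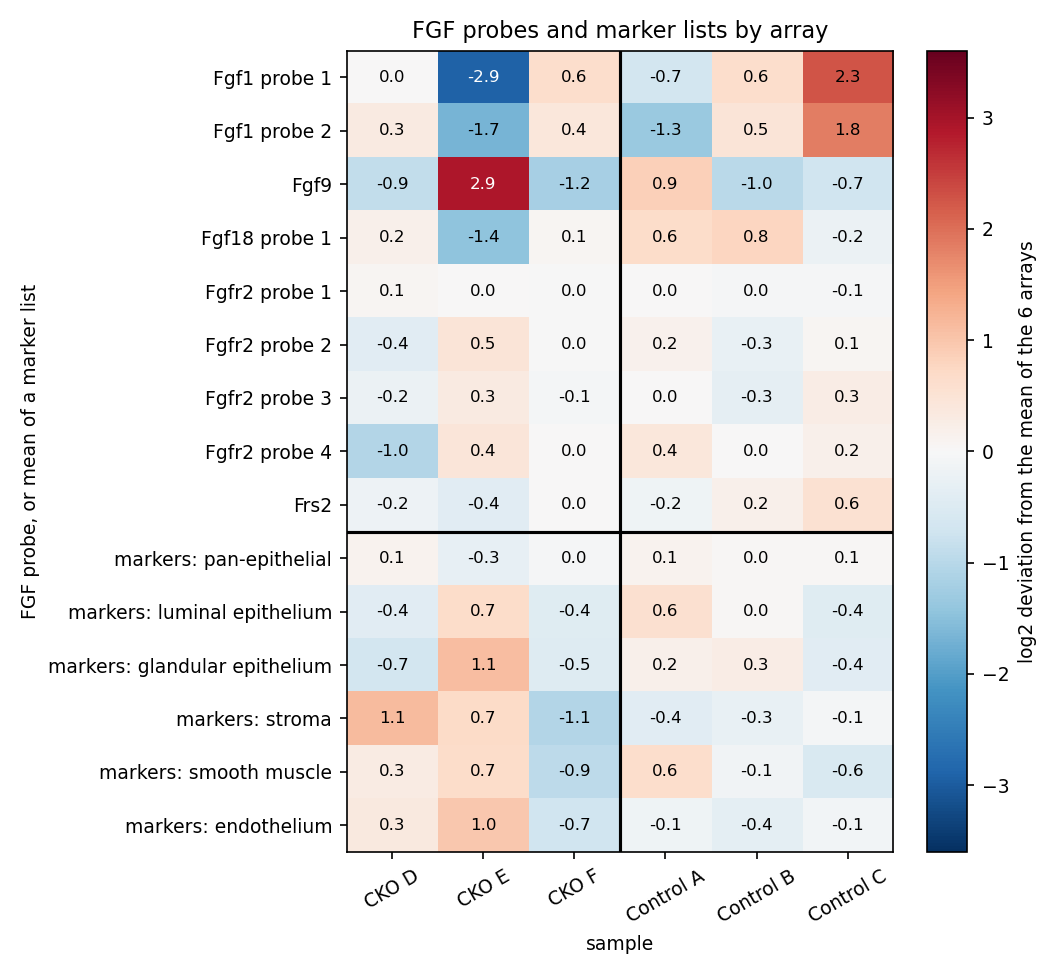
Log2 deviation of each FGF probe from its mean over the 6 arrays (upper 9 rows) and the mean deviation of 6 marker lists (lower rows), with CKO arrays at left and Control arrays at right. Red is above and blue below the mean. The E column holds the deepest colours, low for Fgf1 and Fgf18 and high for Fgf9, and the Fgfr2 probe 1 row is nearly blank.

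For each probe above background on all 6 arrays, the gene with the most similar profile was taken by the root mean square distance between log2 profiles centred on their own means, over 6 arrays and 14006 probes. For Fgf1 this was Spink8, which carries a Kazal-type protease inhibitor domain, at 0.19, where the median distance of all candidates was 1.58. The other Fgf1 probe lay at 0.63. It was below background on CKO E and Control A and was not a candidate, so the distances of that probe and Spink8 cannot be compared. Spink8 read 9.79, 7.15 and 10.44 in CKO and 9.35, 10.72 and 11.82 in Control. Frs2 was nearest to Pigt, a subunit of the complex that attaches GPI anchors, at 0.05. The 4 Fgfr2 probes, from brightest to dimmest, were nearest to Tmem184b, Stk24, Lhfpl2 and Atf4, at distances of 0.03 to 0.06. Each of these genes was picked for the smallest distance among all candidates, so small values were assured and carry no test.

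Among the other genes of the pathway 0 passed as well. Lists were counted by the brightest probe of each gene, where 51.7% of 11940 genes were lower in CKO and the median log2 difference was -0.01. The members and lists were chosen with earlier results of these data known. Of 18 other FGF ligands, all on the array, 2 were tested and 0 passed. Fgf22 lay at 5.74, 5.63 and 5.94 in CKO against 5.97, 6.07 and 6.30 in Control, a difference of -0.34 (SE 0.18, adjusted p 0.985 by limma). Its groups did not overlap, as for 10.6% of all genes tested. Fgf13, which encodes an FGF homologous factor that stays inside the cell, was above background on 2 CKO arrays and 1 Control array and differed by 0.12 (SE 0.17), or 0.20 without CKO replicate F and 0.08 without Control replicate C. The ligands Fgf7 and Fgf10, the classical mesenchymal ligands of the epithelial FGFR2 form, were below background on every array.

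Co-receptors and binding proteins had 4 of 10 genes tested, 3 higher and 1 lower, and 0 passed (median 0.17). Fgfbp3, a secreted carrier of FGFs, differed by 0.35 (SE 0.20) and Fgfrl1, a receptor without a kinase domain, by 0.31 (SE 0.41). Single arrays moved both: Fgfbp3 was 0.23 without Control replicate A, and Fgfrl1 was 0.67 without CKO replicate F, 0.05 without CKO replicate E and 0.00 without Control replicate C. The klotho genes Kl and Klb, co-receptors of endocrine FGFs, were below background. Heparan sulfate core proteins and enzymes had 19 of 25 tested, 13 higher and 6 lower, and 0 passed (median 0.22). Agrn, a heparan sulfate proteoglycan, differed by -0.50 (SE 0.24), and by -0.32 without Control replicate C. Sulf2, which trims sulfate from heparan sulfate, differed by 1.28 (SE 0.64) by its brighter probe and -0.31 (SE 0.31) by its dimmer one. Without Control replicate C, the lowest array at 7.36, the brighter Sulf2 probe differed by 0.51. Fgfbp3, Fgfrl1, Agrn and Sulf2 were named for having the smallest p in their lists.

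Adaptors and the RAS-ERK cascade had 18 of 22 genes tested, 11 higher and 7 lower, and 0 passed (median 0.03). Mapk3, which encodes ERK1, read 7.07, 7.47 and 7.27 in CKO against 7.72, 7.47 and 7.85 in Control by its brighter probe, a difference of -0.41 (SE 0.20). Its dimmer probe, named for its small p, differed by -0.54 (SE 0.20, unadjusted p 0.0315 by limma). On both Mapk3 probes the groups did not overlap, as for 10.3% of all probes tested. On the brighter one CKO E and Control B were equal to 2 decimals. Nf1, which encodes a RAS-inactivating protein, differed by 0.05 (SE 0.26) by its brighter probe. The dimmer Nf1 probe was above background on 3 CKO and 0 Control arrays, so it entered the test through CKO alone and has only a bound in Control. Its means were 5.74 in CKO and 4.86 in Control. With Control set to its lowest signal above background, the CKO mean lay 1.57-fold higher. That figure takes no account of the spread between arrays. The probe was also named for its small p. No confidence interval is given for it, because its Control values were all below background. All of these had an adjusted p of 0.985 or 0.990 by limma.

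Feedback inhibitors and ERK-induced genes had 11 of 20 tested, 8 higher and 3 lower, and 0 passed (median 0.25). Dusp4, a phosphatase that inactivates ERK, had the smallest unadjusted p of the pathway. Its probe ILMN_2689731 read 6.58, 6.11 and 6.11 in CKO against 5.08, 5.29 and 5.12 in Control, a difference of 1.10 (SE 0.20, unadjusted p 0.00101, adjusted p 0.985 by limma). A brighter Dusp4 probe read 7.25, 6.99 and 7.06 in CKO against 5.36, 6.44 and 4.72 in Control, a difference of 1.59 (SE 0.42). The groups did not overlap on either probe, as for 10.3% of all probes tested, and Dusp4 was named for its small p. The first of these probes was below background on Control A and the brighter one on Control C. Another Dusp4 probe differed by -0.08 (SE 0.25) with overlapping groups, and the last was below background. Ier3, an immediate early gene also named for its small p, differed by 0.76 (SE 0.34), and by 0.43 without CKO replicate E. Dusp6 differed by 0.17 (SE 0.29), Etv5 by 0.34 (SE 0.69) and Spry4, a sprouty gene above background, by -0.04 (SE 0.21), the first pair being widely used readouts of FGF signalling.

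Hand2, the stromal repressor of these ligands, was below background on all 6 arrays in an epithelial preparation. The list of progesterone, HAND2 and splicing genes had 11 of 14 tested, 9 higher and 2 lower, and 0 passed (median 0.42). Ihh, the progesterone-induced epithelial ligand upstream of HAND2, differed by 1.20 (SE 0.48) by its brighter probe, and by 0.68 without CKO replicate E. The dimmer Ihh probe differed by 0.80 (SE 0.53), with groups that overlapped. Mcm2, a replication gene, differed by 0.54 (SE 0.21). Ihh and Mcm2 were named for having the smallest p in their list. Muc1, a surface mucin of the epithelium, differed by 0.77 (SE 0.33), Esr1 by 0.42 (SE 0.34) and Pgr by -0.43 (SE 0.55) by their brightest probes. Muc1 was 0.46 without Control replicate C, and Esr1 was 0.11 without CKO replicate D and 0.72 without CKO replicate E. Pgr changed sign without CKO replicate E (0.02) or without Control replicate B (0.06). CKO carried Cre in 1 copy of Pgr, and whether Control did is not given. For Pgr the Cre allele and the loss of Alk3 therefore cannot be told apart. The proliferation marker Mki67 was above background on 0 CKO and 2 Control arrays by 1 probe, too few to be tested.

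**Figure D5:**
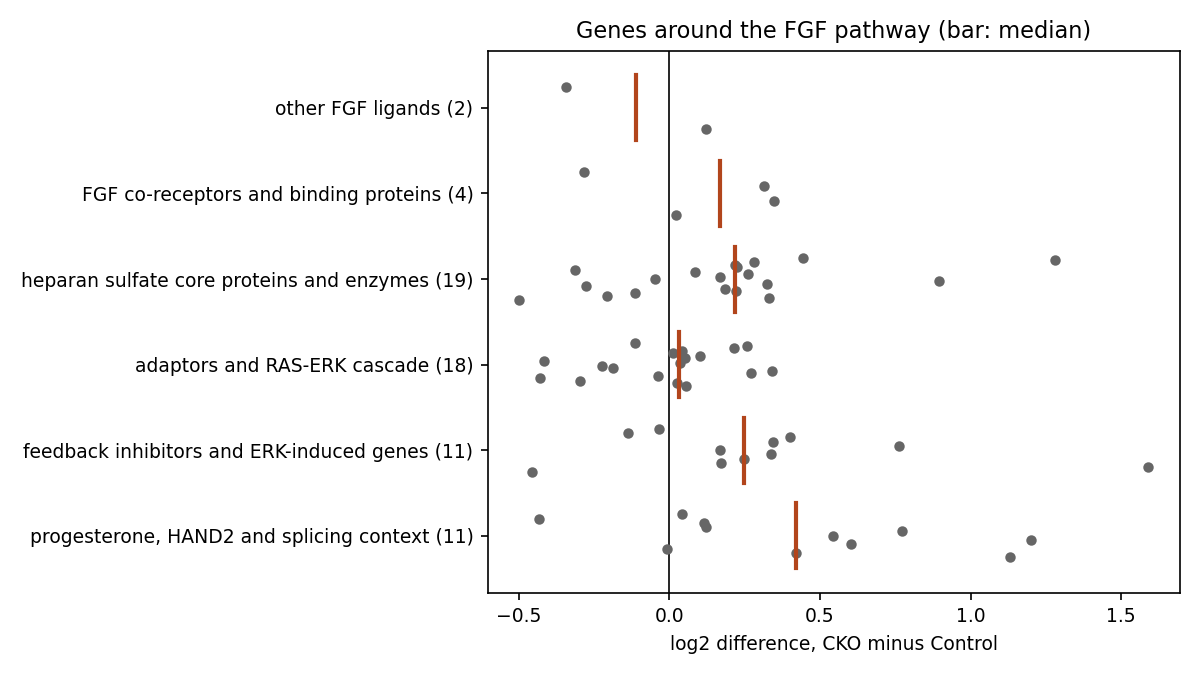
Log2 differences, CKO minus Control, of the genes around the FGF pathway, 1 point per gene by its brightest probe, in 6 lists with the number of genes tested in brackets. Vertical bars are list medians, from -0.11 for the other ligands to 0.42 for the progesterone, HAND2 and splicing list; 0 genes passed.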

How the data were processed

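Each scanner table holds, per the file headers, a bead-averaged intensity per probe, a detection p-value and a bead count, neither background-subtracted nor normalised. The deposited series table holds intensity values that, set against the raw ones, were background-subtracted and quantile-normalised by the authors; which software made them is not given in the sources used. The raw intensity values went through neqc (normexp background correction with controls inferred from detection p-values, an offset of 16, quantile normalisation, log2; limma 3.58.1, R 4.3.3). CKO and Control (3 arrays each) were compared with lmFit and eBayes, two-sided, threshold 0.05, after Benjamini-Hochberg adjustment over 17291 probes. Names came from a RefSeq table of GRCm38.p6 by accession (29370 probes), symbol (3686) or synonym (3267); 8958 kept the file's name. The number of arrays limits the precision. The steps were tested on simulated data with independent noise for each probe and array. Those data held no array that stood apart as CKO E did. Alternatives were normexp without controls and an offset of 50, no background correction, median scaling, cyclic loess, the deposited values (log2 after setting negatives to 0 and adding 16), no filter, 2 stricter filters, 1 probe or the mean of probes per gene, array weights, a robust fit with an intensity trend, and each array left out in turn.

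The members and lists were chosen with earlier results of these data known. Named genes were the 10 members with every probe, Bmpr1a, 2 genes of smallest p per pathway list, a fixed set (Hand2, Pgr, Esr1, Muc1, Mki67, Esrp1, Esrp2) and the nearest profiles. Fgf7, Fgf10, Kl, Klb, Dusp6, Etv5 and Spry4 were named after their values were seen. Markers of macrophages and dendritic cells (4 of 7 tested, median log2 difference 0.26), lymphocytes (2 of 7, 0.02) and the preimplantation embryo (2 of 6, 0.18) had 0 genes that passed.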

Additional observations from a re-analysis of the deposited data

How the results depend on the processing

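FGF probes past the test numbered 0 under all 12 alternatives and with each of the 6 arrays left out; with no filter 1 of 17 had an unadjusted p under 0.05, an Fgfr3 probe below background on every array. Over all probes, those lower in CKO stayed at 0. Those higher, 3 in the reported setting, were 0 when only probes above background on all 6 arrays were tested, 0 with detection p under 0.01 on all 6 (both remove the 3 probes), and 6 with array weights. Leaving out each array in turn gave 0 to 2. Bmpr1a stayed negative, from -0.73 to -0.43. Of 27 named probes 17 kept their sign in every setting that tested them, and 0 passed under any setting. Several of the 17 were named for their small p, which makes a stable sign more likely. Of the FGF probes tested, only the brighter Fgf1 probe, Fgf18 and Frs2 kept their sign. The dimmer Fgf1 probe, Fgf9 and every Fgfr2 probe changed sign in at least 1 setting. Some named probes were not tested in all settings. The dimmer Nf1 probe was tested in 9 of the 12 alternatives and with 3 of the 6 arrays left out. Median scaling turned the 3 Fgfr2 probes near 0 to -0.0448, -0.0581 and -0.0506, and the mean of Fgfr2 probes was -0.0733. Array weights were 0.36, 0.351 and 3.18 for CKO D, E and F, and 0.811, 3.89 and 0.785 for Control A, B and C. These weights turned Fgf9 to -0.124, Fgf13 to -0.0428, Fgfrl1 to -0.475 and Esrp1 to 0.0764. Esrp1 was 0.00106 with no background correction and 0.00779 with cyclic loess. With single arrays left out, Fgf9 ran from -0.76 to 1.28 and the dimmer Fgf1 probe from -1.46 to 0.118. The Fgfr2 probes ILMN_2609887, ILMN_1229167 and ILMN_2646078 ran from -0.197 to 0.243, -0.121 to 0.171 and -0.725 to 0.0156 in that order. Esrp1 ran from -0.558 to 0.604 and Pgr from -0.795 to 0.0578. Except where named, the cause was not tested. Signal over background limits the dim probes of Fgf1, Fgf9 and Fgf18. No paired analysis was possible because the groups share no replicate labels.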
